A study of Sus scrofa with 24 samples.

Results

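The miR-146 and miR-155 miRNAs were followed through the differentiation of pig subcutaneous and intramuscular adipocytes. Every entry of the deposited table named ssc-miR-146a, ssc-miR-146b or ssc-miR-155, with any arm suffix, was taken, which gave 5 of 1587 entries (363 of them known miRNAs). These are the mature miRNAs ssc-miR-146a-5p, ssc-miR-146b and ssc-miR-155-5p, and the opposite arms ssc-miR-146a-3p and ssc-miR-155-3p. Only the first 3 reached a mean of 1 TPM over all libraries and were tested, among 430 entries that did. The preadipocytes came from the back subcutaneous fat (BF) and from the longissimus dorsi muscle (IMF) of 3 Yorkshire piglets that were 6 days old, with no genetic change or added treatment beyond the differentiation medium that both sources received. Both were given induction medium with 3-isobutyl-1-methylxanthine, dexamethasone and insulin from day 0 to day 2, medium with insulin from day 2 to day 4, and growth medium after that. The 4 collection times, days 0, 2, 4 and 8, gave 8 groups (BF-0d to BF-8d and IMF-0d to IMF-8d), each sequenced as 3 libraries, 24 in all. The sources used here do not link a library to a single piglet, so the errors and p-values measure the spread between these libraries, part of which may be technical.

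miR-146a and miR-146b are products of different genes that are induced by NF-kB, the transcription factor downstream of Toll-like receptors and of the receptors for tumour necrosis factor and interleukin-1. They repress the adaptor proteins TRAF6 and IRAK1 of the same pathway and so form a negative feedback loop. miR-155, made from the BIC transcript, is also induced by inflammatory signals. Its known targets include SOCS1, an inhibitor of cytokine signalling, and C/EBPβ, an early regulator of adipogenesis. All 3 are best known from leukocytes and are also found in adipose tissue.

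The mature sequences, from the supplementary miRNA list of the study, are shown because the seed decides which transcripts a miRNA can pair with. Capitals mark the seed, bases 2 to 8 counted from the 5′ end.
ssc-miR-146a-5p: tGAGAACTgaattccatgggtt
ssc-miR-146b: tGAGAACTgaattccataggc
ssc-miR-155-5p: tTAATGCTaattgtgatagggg
ssc-miR-155-3p: tCCTACATgttagcattaaca
ssc-miR-146a-3p: cCTGTGAAgtttagttcttcag

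ssc-miR-146a-5p and ssc-miR-146b share their seed and their first 17 bases. Of 21 positions compared they are identical at 19, and the substitutions from ssc-miR-146a-5p to ssc-miR-146b are G18A and T21C, with positions counted from 1 at the 5′ end. The seed of ssc-miR-155-5p is different from theirs. Among 958 entries whose mature sequence was listed, 600 of them new, no new entry had the seed of any of the 5. In Sscrofa11.1 each sequence has 1 exact copy. ssc-miR-146a-5p lies at chr16:63044307-63044328 on the minus strand, in the RefSeq gene MIR146A, with the protein-coding gene PTTG1 60359 bp away and a lncRNA 11746 bp away. ssc-miR-146b lies at chr14:113446874-113446894 on the plus strand, in MIR146B, 3210 bp from CUEDC2. ssc-miR-155-5p lies at chr13:189138832-189138853 on the plus strand, in MIR155, 9808 bp from MRPL39. None of the 3 precursors overlaps another gene of the RefSeq annotation.

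The values are TPM as named by the study, that is reads per 1000000 reads counted on miRNAs. Between 4954845 and 16863560 such reads were counted per library, so that 1 read is worth from 0.0593 to 0.202 TPM and 3 reads, taken as the detection floor, from 0.178 to 0.605 TPM; these floors cover counting error only. A single miRNA, ssc-miR-21-5p, held 27.9% to 60.5% of each library's reads, and since TPM is a share of one total, changes are also given after median-of-ratios scaling where this matters. The smallest number of reads behind a value was 386 for ssc-miR-146a-5p, 41 for ssc-miR-146b and 2699 for ssc-miR-155-5p. Within groups, libraries differed by more than counting error in all 24 pairs (lowest chi-square 49.2 times its degrees of freedom). A miRNA was called when limma on log2(TPM + 1) gave a Benjamini-Hochberg FDR under 0.05 over the 430 entries and a fold change above 1.5. Log2 fold changes, given ± SE, are positive where the later day, or IMF, was higher. The exact permutation test of 3 libraries against 3 cannot give a two-sided p under 0.1 and reached that value in each comparison whose libraries did not overlap.

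ssc-miR-155-5p was the most abundant of the 3 in 22 of 24 libraries, with a mean of 632 TPM, followed by ssc-miR-146a-5p with 263 TPM and ssc-miR-146b with 41.3 TPM. Among the known entries of a library, ssc-miR-155-5p ranked between place 31 and place 61, ssc-miR-146a-5p between place 35 and place 125 and ssc-miR-146b between place 90 and place 221. The highest library exceeded the lowest by 6.42 times for ssc-miR-155-5p, 28.7 times for ssc-miR-146a-5p and 39.3 times for ssc-miR-146b. All 3 were higher on day 8 than on day 0 in both sources, but they reached that level by different courses, as the plot of levels by day shows.

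**Figure D1:**
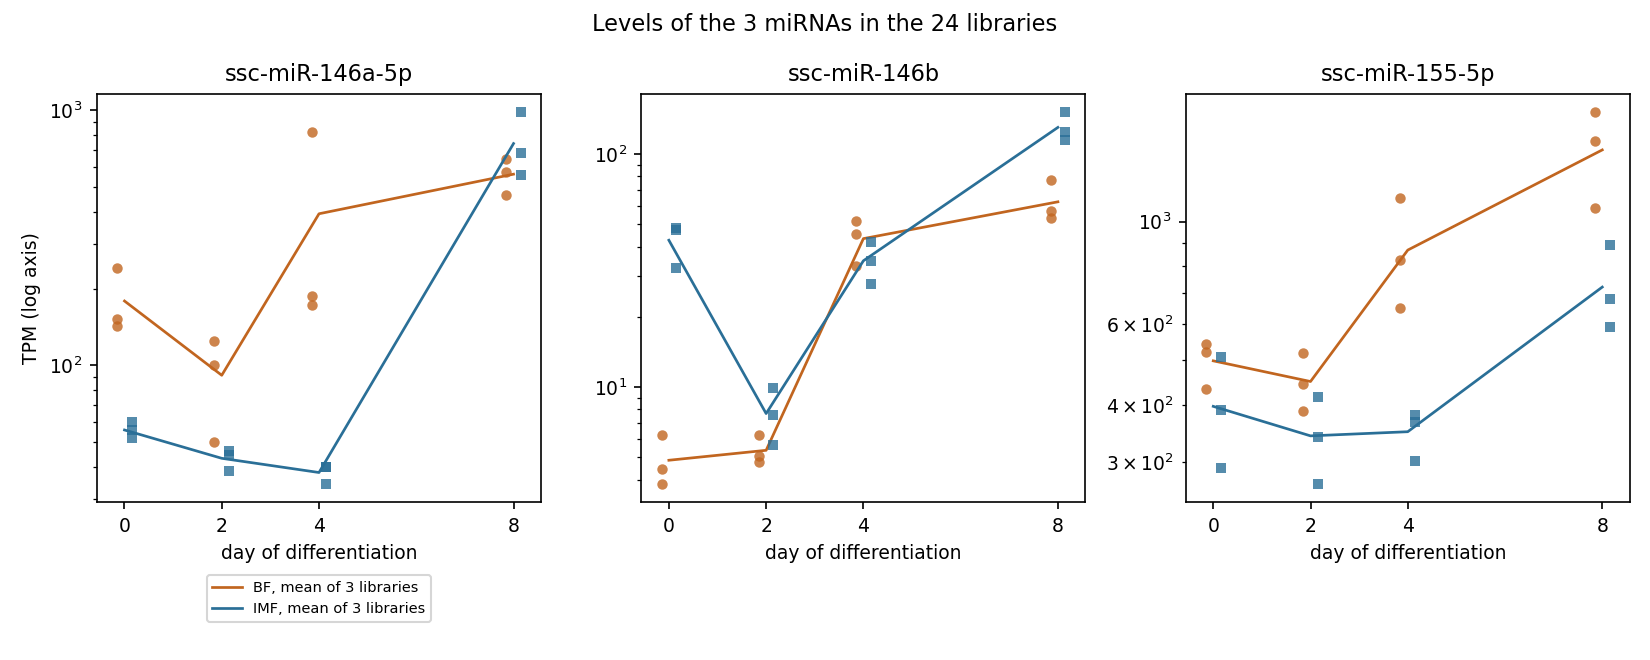
Level of each miRNA in TPM (log axis) against the day of differentiation; each point is 1 library, circles BF and squares IMF, and lines join the means of 3 libraries. ssc-miR-146a-5p in IMF stays at or under 59.9 TPM to day 4 and lies at or above 557 TPM on day 8. ssc-miR-146b starts lower in BF than in IMF. For ssc-miR-155-5p the BF libraries lie above the IMF libraries on both day 4 and day 8.

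ssc-miR-146a-5p, a brake on NF-kB signalling, was low in intramuscular cells until day 4 and then rose 19.5-fold to day 8. In subcutaneous cells it started higher and rose 3.14-fold between day 0 and day 8. In IMF-0d the libraries held 55.6, 59.9 and 51.8 TPM, in IMF-2d 38.6, 46.3 and 44.7 TPM and in IMF-4d 39.8, 34.4 and 39.8 TPM. These 9 libraries lay close together, with an SD of at most 4.10 TPM in a group. The IMF-8d libraries held 985, 682 and 557 TPM, each far above all 9. The change from IMF-4d to IMF-8d was 4.21 ± 0.21 on the log2 scale (limma, adjusted p = 3.29e-05), and that from IMF-0d to IMF-8d was 3.67 ± 0.21 (adjusted p = 6.63e-05). The smaller differences from IMF-0d to IMF-2d (-0.36 ± 0.11, with no overlap of libraries) and from IMF-2d to IMF-4d (-0.18 ± 0.12) were not called.

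In the subcutaneous cells ssc-miR-146a-5p held 241, 143 and 153 TPM in BF-0d and 124, 100 and 50.2 TPM in BF-2d. The BF-2d libraries were all below those of BF-0d, but the change of -1.02 ± 0.37 did not pass (adjusted p = 0.170), while edgeR and DESeq2 on the recovered reads called it (adjusted p = 0.0175 and 0.00397). Without replicate 3 of BF-2d it was -0.64 (adjusted p = 0.193). BF-4d held 188, 172 and 819.5 TPM. Replicate 3 stood apart from replicates 1 and 2, and it also had the highest summed level of leukocyte markers of all libraries (2.60 TPM, against 1.29 and 0.529 TPM in replicates 1 and 2); their part in the result was not tested. BF-8d held 466, 576 and 645 TPM, all above BF-0d. The change from BF-2d to BF-4d was 1.79 ± 0.54 (adjusted p = 0.0747) and that from BF-4d to BF-8d 0.90 ± 0.50 (adjusted p = 0.309). Without replicate 3 of BF-4d the latter was 1.63 and was called (adjusted p = 0.00247), and the former was 1.07 (adjusted p = 0.187). Without replicate 1 of BF-4d the former was 2.12 and was called (adjusted p = 0.0145). From BF-0d to BF-8d the rise was 1.68 ± 0.22 (adjusted p = 1.38e-05), and 1.09 (adjusted p = 0.00449) with TPM computed without ssc-miR-21-5p.

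ssc-miR-146b, the second brake with the same seed, was scarce in subcutaneous preadipocytes and 8.80-fold higher in intramuscular ones. In subcutaneous cells it rose between day 2 and day 4, 8.10-fold. In intramuscular cells it was 0.180 times as high on day 2 as on day 0 in the mean, overlapped on day 4 with day 0, and rose from day 4 to day 8. The BF-0d libraries held 6.24, 3.85 and 4.45 TPM and the BF-2d libraries 5.08, 6.19 and 4.77 TPM. These 6 libraries overlapped (0.13 ± 0.20, adjusted p = 0.744). BF-4d held 33.0, 51.6 and 45.2 TPM and BF-8d 77.0, 56.6 and 53.3 TPM. Every BF-4d library was above every BF-2d library (2.79 ± 0.24, adjusted p = 8.19e-05, or 0.0572 without the filter on low values), and the further change to BF-8d was not called, although the libraries did not overlap (0.52 ± 0.26, adjusted p = 0.259). Replicate 3 of BF-4d, which stood apart for ssc-miR-146a-5p, lay between replicates 1 and 2 for ssc-miR-146b. From BF-0d to BF-8d the rise was 3.44 ± 0.23 (adjusted p = 4.27e-09).

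In intramuscular cells ssc-miR-146b held 47.3, 32.4 and 48.2 TPM in IMF-0d, 7.59, 9.85 and 5.61 TPM in IMF-2d, 41.9, 34.7 and 27.7 TPM in IMF-4d and 151, 124 and 114 TPM in IMF-8d. The IMF-2d libraries lay below all other IMF libraries and the IMF-8d libraries above them. The difference from IMF-0d to IMF-2d was -2.34 ± 0.25 with an unadjusted p of 0.000149 in limma's test, yet the adjusted p was 0.0642 and it was not called. That from IMF-2d to IMF-4d was 2.05 ± 0.25 (adjusted p = 0.0535). edgeR called both, with adjusted p of 8.99e-06 and 9.44e-05, and so did DESeq2. The rise from IMF-4d to IMF-8d was called (1.88 ± 0.19, adjusted p = 0.000835), as was that from IMF-0d to IMF-8d (1.60 ± 0.19, adjusted p = 0.00226).

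ssc-miR-155-5p had the smallest span between its lowest and highest library of the 3. It was higher on day 8 than on day 0, 2.87-fold in subcutaneous and 1.82-fold in intramuscular cells, and from day 4 it was lower in intramuscular than in subcutaneous cells. The BF-0d libraries held 522, 542 and 432 TPM, BF-2d 387, 517 and 444 TPM, BF-4d 649, 1128 and 826 TPM and BF-8d 1069, 1497 and 1731 TPM. The first 2 days overlapped and day 4 lay above day 2 in every library, with a change of 0.92 ± 0.25 that missed the threshold (adjusted p = 0.0520). From BF-0d to BF-8d it rose by 1.5 ± 0.21 (adjusted p = 2.09e-05), and by 0.91 (adjusted p = 0.00762) with TPM computed without ssc-miR-21-5p.

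In intramuscular cells ssc-miR-155-5p held 508, 391 and 292 TPM in IMF-0d, 269.6, 341 and 417 TPM in IMF-2d and 301, 368 and 379.6 TPM in IMF-4d. These 3 days overlapped. The IMF-8d libraries, with 890.4, 681 and 592 TPM, lay above all of them. The rise from IMF-4d to IMF-8d was 1.03 ± 0.18 (adjusted p = 0.00991) and that from IMF-0d to IMF-8d 0.87 ± 0.24 (adjusted p = 0.0289). With TPM computed without ssc-miR-21-5p, these were 0.70 (adjusted p = 0.0668) and 0.44 (adjusted p = 0.249) and were not called. Without the filter on low values they were not called either (adjusted p = 0.0818 and 0.143). The call from IMF-0d to IMF-8d was also lost without replicate 2 or 3 of IMF-0d or without replicate 1 or 2 of IMF-8d, with adjusted p up to 0.0966.

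Taking the days together, 3 of 3 miRNAs were called between IMF-4d and IMF-8d, where 13.0% of the 430 entries were. Between day 0 and day 8, 3 of 3 were called in BF against 42.8% of all entries and 3 of 3 in IMF against 30.5%. Between BF-2d and BF-4d, 1 of 3 was called against 6.05%. The remaining 4 adjacent-day comparisons gave no call by limma among the 3. For BF-0d and BF-2d, where limma called 4.19% of all entries, the unadjusted p was under 0.05 for 1 of 3, and edgeR called 1 and DESeq2 1. Of the 430 entries, 104 had an unadjusted p under 0.05 there, and edgeR and DESeq2 called 56 each. For BF-4d and BF-8d, where limma called 3.02%, the unadjusted p was under 0.05 for 1 of 3 and for 99 of 430, and edgeR and DESeq2 called none of the 3 and 13 and 24 of the 430. For IMF-0d and IMF-2d it was under 0.05 for 2 of 3 and the other tools called 1 and 1. For IMF-2d and IMF-4d it was under 0.05 for 1 and the other tools called 1 and 1. In these last comparisons limma called 0 of 430 entries (0.00% in each), with 68 and 65 entries at an unadjusted p under 0.05, edgeR called 7 and 1, and DESeq2 9 and 2.

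How often the libraries of the groups compared were fully separated can be set beside the same share over all entries. For BF, the libraries of 1 of 3 miRNAs did not overlap between day 0 and day 2 (29.8% of all entries), those of 3 between day 2 and day 4 (34.9%), of 1 between day 4 and day 8 (26.5%) and of 3 between day 0 and day 8 (53.7%). For IMF the numbers were 2 (19.8%), 1 (22.1%), 3 (38.4%) and 3 (48.8%) in the same order. Between the sources they were 2 of 3 on days 0 (47.7%), 4 (50.2%) and 8 (51.2%), and 1 of 3 for day 2 (33.3%).

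**Figure D2:**
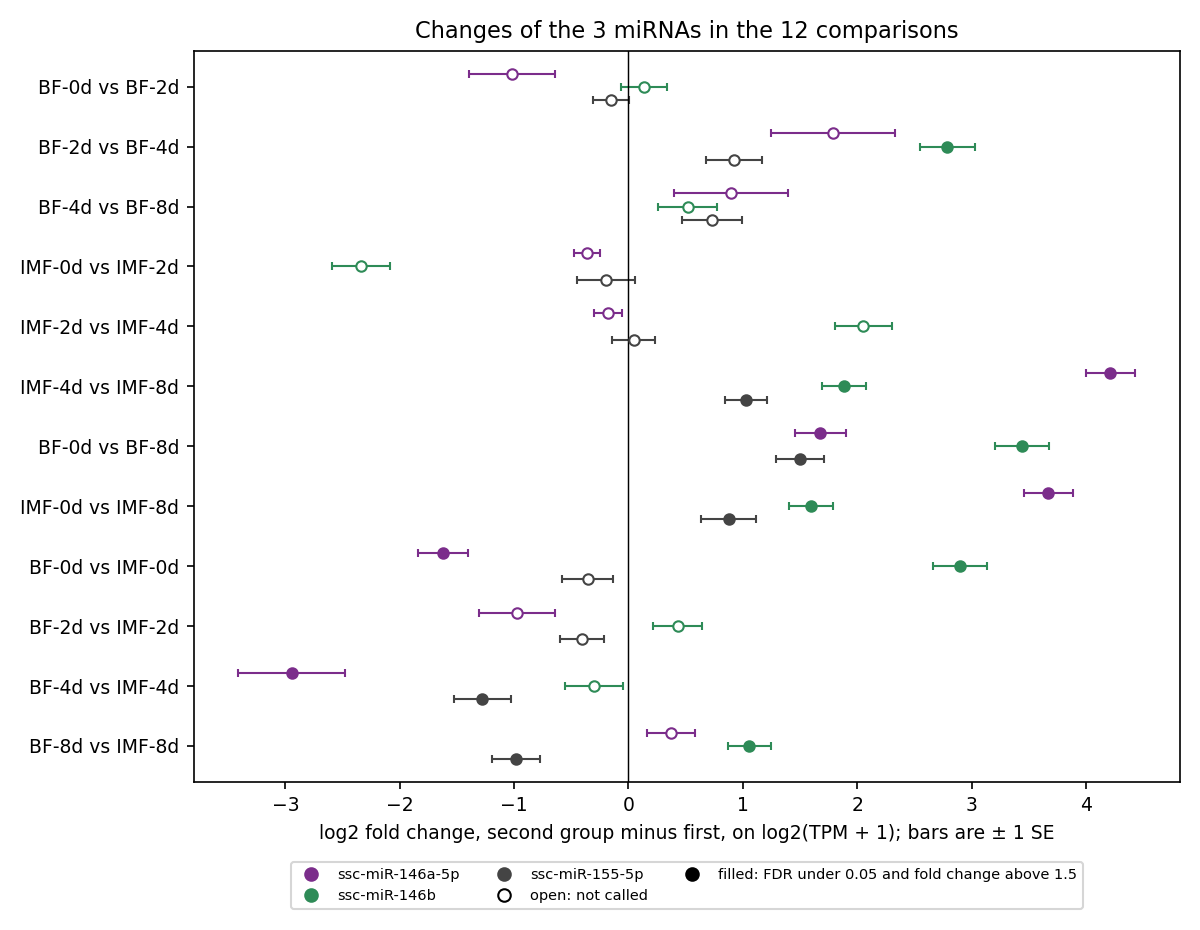
Log2 fold change of each miRNA in the 12 comparisons of 2 groups, second group minus first, with bars of 1 SE; filled points were called and open points were not. The rise of ssc-miR-146a-5p from IMF-4d to IMF-8d, 4.21, is the farthest point to the right, and ssc-miR-146b was called higher in IMF on day 0 and day 8.

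The sources were then compared on the same day. In preadipocytes ssc-miR-146a-5p was higher in subcutaneous and ssc-miR-146b in intramuscular cells, while no difference was detected in ssc-miR-155-5p. On day 0 the differences were -1.62 ± 0.22 for ssc-miR-146a-5p (adjusted p = 0.00451) and 2.90 ± 0.24 for ssc-miR-146b (adjusted p = 0.00105). The libraries of the sources did not overlap for either, and 2 of 3 miRNAs were called, where 29.3% of all entries were. ssc-miR-155-5p overlapped between the sources (-0.36 ± 0.22, adjusted p = 0.272). On day 2 none of the 3 was called by limma (12.3% of all entries), with 1 of 3 at an unadjusted p under 0.05 and 1 called by edgeR and by DESeq2. Over all entries 125 of 430 were at an unadjusted p under 0.05, and edgeR called 68 and DESeq2 65. The 1 miRNA was ssc-miR-146a-5p, whose libraries did not overlap (-0.97 ± 0.33, adjusted p = 0.119), and which was called by limma without replicate 3 of BF-2d (-1.35, adjusted p = 0.00668).

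On day 4 the intramuscular cells held 0.0966 times the subcutaneous mean of ssc-miR-146a-5p and 0.403 times that of ssc-miR-155-5p. The differences were -2.94 ± 0.47 (adjusted p = 0.000496) and -1.28 ± 0.25 (adjusted p = 0.00179), and without replicate 3 of BF-4d that of ssc-miR-146a-5p was -2.22 and was called (adjusted p = 1.92e-05). Without the filter on low values neither was called (adjusted p = 0.0857 and 0.0641). The median over all 430 entries was itself -0.34 on this day, and after median-of-ratios scaling the differences were -2.52 (adjusted p = 0.00327) and -0.85 (adjusted p = 0.0214). ssc-miR-146b overlapped between the sources, at -0.30 ± 0.26 on the TPM scale and at 0.12 after median-of-ratios scaling. On day 8 ssc-miR-146b was 2.09-fold higher in IMF (1.06 ± 0.19, adjusted p = 0.000518) and ssc-miR-155-5p was 0.503 times as high as in BF (-0.98 ± 0.21, adjusted p = 0.00181). The latter was -0.65 by edgeR (adjusted p = 0.0135) and was not called without the filter (adjusted p = 0.0808). ssc-miR-146a-5p overlapped (0.37 ± 0.21, adjusted p = 0.178), but with the median of all entries at -0.28 it was called after median-of-ratios scaling (0.64, adjusted p = 0.0112). It was also called by edgeR (0.73, adjusted p = 0.00683) and by DESeq2 (0.67, adjusted p = 0.00279). On each of these days 2 of 3 miRNAs were called, where 36.3% of all entries were on day 4 and 37.2% on day 8.

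Whether the courses of the sources differed was asked of all 24 libraries at once, with limma's F test on the interaction of source and day. The test passed for ssc-miR-146a-5p (adjusted p = 0.000307) and for ssc-miR-146b (adjusted p = 3.29e-07), where 31.6% of all entries passed, and not for ssc-miR-155-5p (adjusted p = 0.0701). The single steps show where the courses parted. From day 0 to day 2 the change of ssc-miR-146b in IMF minus that in BF was -2.47 ± 0.32 (adjusted p = 1.83e-05), and 1 of 3 miRNAs passed, against 2.33% of all entries. From day 2 to day 4 it was ssc-miR-146a-5p that passed, against 7.67% of all entries, but it passed neither under 4 of 8 alternatives (adjusted p from 0.0527 to 0.0786) nor without any one of 5 libraries. From day 4 to day 8 both passed, against 12.3%, although that of ssc-miR-146b did not with edgeR (1.02, adjusted p = 0.0684). Over the whole course, day 0 to day 8, ssc-miR-146a-5p rose more in IMF and ssc-miR-146b more in BF, so that 2 of 3 passed against 20.7% of all entries.

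**Figure D3:**
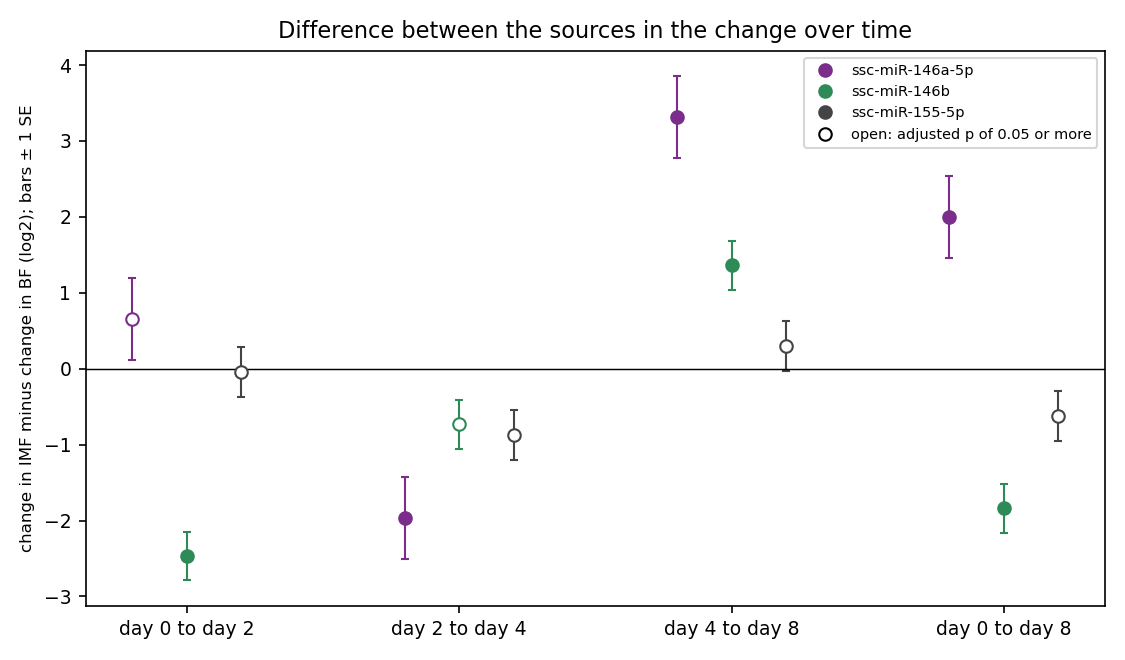
Change of each miRNA in IMF minus its change in BF, in log2 units with bars of 1 SE, for 3 adjacent steps and for day 0 to day 8; filled points had an adjusted p under 0.05. ssc-miR-146b lies at -2.47 for day 0 to day 2 and ssc-miR-146a-5p at 3.32 for day 4 to day 8, and all points of ssc-miR-155-5p are open.

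Since ssc-miR-146a-5p and ssc-miR-146b share a seed, their ratio within a library was compared as well; it does not depend on the total of the library. ssc-miR-146a-5p was the more abundant of the pair in every BF library, by a wide margin on day 0, whereas in IMF-0d and IMF-4d the pair was nearly balanced. The BF-0d libraries held between 34.3 and 38.7 TPM of ssc-miR-146a-5p per TPM of ssc-miR-146b, and the IMF-0d libraries between 1.08 and 1.85. On day 2 it ranged from 10.5 to 24.5 in BF and from 4.70 to 7.96 in IMF, and on day 4 from 3.34 to 18.1 in BF and from 0.949 to 1.44 in IMF. On these 3 days every BF library was above every IMF library. On day 8 the ranges overlapped, 6.06 to 12.1 in BF and 4.87 to 6.52 in IMF. The difference of the mean log2 ratios, IMF minus BF, was -4.79 for day 0, -1.48 for day 2, -2.66 for day 4 and -0.70 for day 8. Over the 4 days the mean difference, IMF minus BF, was -2.41 (exact two-sided permutation test of the source within each day, 160000 arrangements, p = 2.5e-05). This test counts the libraries of the 4 days as separate units, although all cultures came from 3 piglets. Its p, and those that follow, therefore measure the spread between libraries and not between animals. Leaving out the libraries of each replicate number in turn gave from -2.52 to -2.32, with p from 0.00154 to 0.00309, where 0.00154 is the smallest p possible. ssc-miR-146a-5p was below ssc-miR-146b in 2 of 24 libraries, both of IMF-4d.

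Expressed as a share of the summed level of both, ssc-miR-146b made up 2.66% ± 0.16 (SD, n = 3) in BF-0d, 6.14% ± 2.39 in BF-2d, 14.4% ± 8.92 in BF-4d and 10.2% ± 3.45 in BF-8d. In the intramuscular cells it made up 43.1% ± 7.01 in IMF-0d, 15.0% ± 3.41 in IMF-2d, 47.5% ± 5.64 in IMF-4d and 15.2% ± 1.87 in IMF-8d. The summed level itself, that is the amount of the shared seed, was 184 ± 55.7 TPM in BF-0d, 96.8 ± 38.0 in BF-2d, 437 ± 371 in BF-4d and 625 ± 77.7 in BF-8d. In BF-4d it was 865 TPM in replicate 3, against 221 and 224 TPM in replicates 1 and 2. In the intramuscular cells it was 98.4 ± 5.47 TPM in IMF-0d, 50.9 ± 5.04 in IMF-2d, 72.8 ± 7.75 in IMF-4d and 871 ± 239 in IMF-8d. Up to day 4 each IMF mean of this sum was below that of BF on the same day, and on day 8 it was above it. The libraries overlapped on day 2 (46.1 to 56.2 TPM in IMF, 55.0 to 129 TPM in BF) and on day 8 (672 to 1137 TPM in IMF, 543 to 698 TPM in BF). The difference in the sum was not tested.

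**Figure D4:**
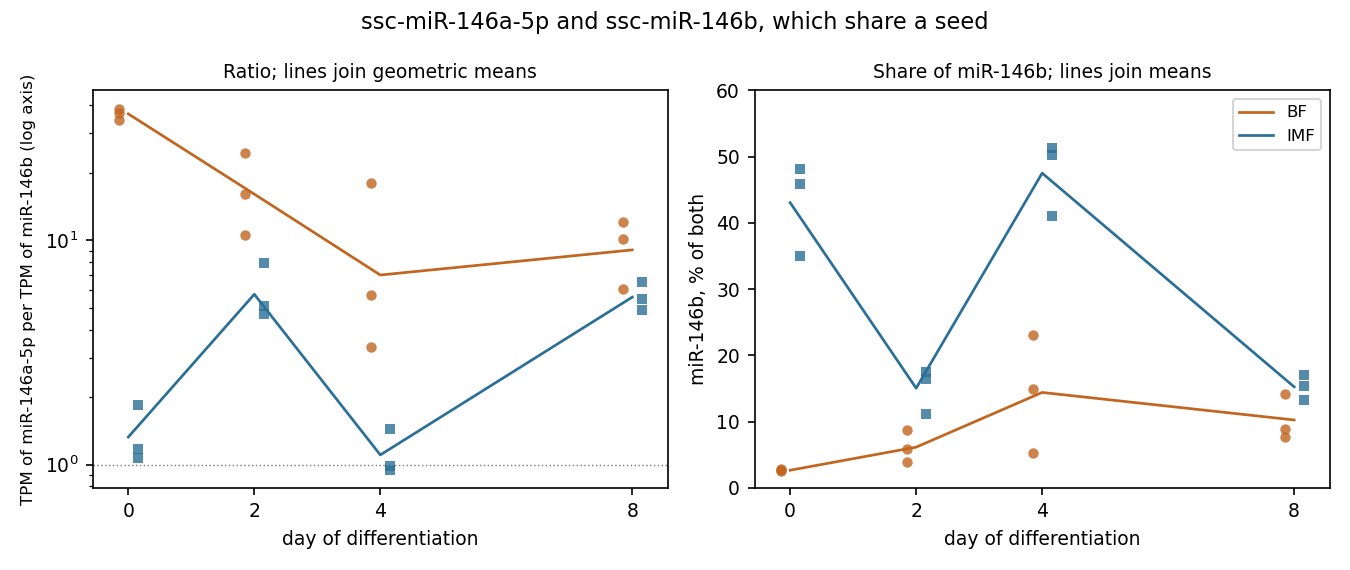
Left, TPM of ssc-miR-146a-5p per TPM of ssc-miR-146b in each library (log axis) against the day, with lines joining geometric means and a dotted line at equal levels; right, the share of ssc-miR-146b in the sum of both in percent, with lines joining means. Circles are BF and squares IMF libraries: the BF-0d libraries lie between 34.3 and 38.7 and the IMF-0d libraries between 1.08 and 1.85.

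In order of the group means, ssc-miR-146a-5p ran from IMF-4d (38.0 ± 3.14 TPM, SD, n = 3) over IMF-2d (43.2 ± 4.10), IMF-0d (55.8 ± 4.06), BF-2d (91.4 ± 37.7), BF-0d (179 ± 54.4), BF-4d (393 ± 369) and BF-8d (562 ± 90.0) to IMF-8d (742 ± 220.1). Of the neighbours in this order, the libraries of IMF-2d and IMF-0d and those of BF-2d and BF-0d did not overlap, and all others did. ssc-miR-146b ran from BF-0d (4.84 ± 1.24) over BF-2d (5.34 ± 0.745), IMF-2d (7.68 ± 2.12), IMF-4d (34.8 ± 7.09), IMF-0d (42.6 ± 8.88), BF-4d (43.3 ± 9.45) and BF-8d (62.3 ± 12.8) to IMF-8d (129.9 ± 19.0). Here the steps from IMF-2d to IMF-4d, from BF-4d to BF-8d and from BF-8d to IMF-8d did not overlap. ssc-miR-155-5p ran from IMF-2d (342 ± 73.6) over IMF-4d (349.5 ± 42.3), IMF-0d (397 ± 108), BF-2d (449 ± 65.4), BF-0d (498 ± 58.4), IMF-8d (721 ± 153) and BF-4d (868 ± 242) to BF-8d (1432 ± 336). Only BF-0d and IMF-8d, neighbours in this order, did not overlap.

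The opposite arms were close to absent. ssc-miR-155-3p had 102 reads over the 24 libraries, against 156515 of ssc-miR-155-5p, and ssc-miR-146a-3p had 9 reads against 69957 of ssc-miR-146a-5p. There were thus 1534 reads of the 5p arm per read of the 3p arm for miR-155 and 7773 for miR-146a. ssc-miR-146a-3p was at or under the floor of 3 reads in all 24 libraries and ssc-miR-155-3p in 12 of 24, and neither passed the filter on low values, so they were not tested. For miR-146b a single arm is in the table.

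Because these miRNAs are abundant in immune cells, the markers of other cell types were read in the same libraries. The 4 leukocyte markers (ssc-miR-142-3p, ssc-miR-142-5p, ssc-miR-150 and ssc-miR-223) summed to between 0.201 and 2.60 TPM per library, and 0 of the 4 passed the filter on low values. ssc-miR-223, a myeloid miRNA, had 3 reads in all and ssc-miR-150, a lymphocyte miRNA, 1 read. In IMF-8d, where ssc-miR-146a-5p and ssc-miR-146b had their highest means, the leukocyte sum was between 0.201 and 1.07 TPM. The 3 red blood cell markers (ssc-miR-451, ssc-miR-144 and ssc-miR-486) summed to between 6.48 and 7.01 TPM in IMF-8d and to at most 3.77 TPM in any other library; ssc-miR-144 had 3 reads in all. ssc-miR-486 alone averaged 6.27 TPM in IMF-8d and rose there from IMF-4d by 2.48 (adjusted p = 0.000237). It was also higher on day 8 than on day 0, by 2.01 in IMF (adjusted p = 0.000872) and 1.3 in BF (adjusted p = 0.000425), while ssc-miR-451 averaged 0.408 TPM in IMF-8d and was highest in BF-4d, at 1.28 TPM. Between the sources ssc-miR-486 was lower in IMF on day 4 (-0.94, adjusted p = 0.0188) and higher in IMF on day 8 (1.10, adjusted p = 0.00132). The 2 endothelial arms of miR-126 summed to between 18.2 and 90.9 TPM, with group means from 40.9 to 73.8 TPM in BF and from 26.0 to 30.1 TPM in IMF. ssc-miR-126-5p rose from BF-0d to BF-8d (0.71, adjusted p = 0.0283), and ssc-miR-126-3p was lower in IMF-4d than in BF-4d (-1.37, adjusted p = 0.00207) and in IMF-8d than in BF-8d (-1.3, adjusted p = 0.000518). Their part in the differences between the sources and days was not tested. The 7 skeletal muscle markers summed to between 475 and 2362 TPM, nearly all of it ssc-miR-1, while ssc-miR-206 had 49 reads in all and was at 0 in 13 libraries. Of these 7, 3 were tested, and some moved in the same comparisons as the miRNAs described here. ssc-miR-1 fell from BF-0d to BF-2d (-0.89, adjusted p = 0.0217), rose from BF-2d to BF-4d (1.29, adjusted p = 0.00685) and was higher in BF-8d than in BF-0d (0.91, adjusted p = 0.00280). ssc-miR-133a-3p rose from IMF-4d to IMF-8d (1.17, adjusted p = 0.00363) and, over the whole course, by 1.43 in subcutaneous cells (adjusted p = 3.65e-05) and by 0.84 in intramuscular cells (adjusted p = 0.0202), and was higher in IMF than in BF on day 0 (0.82, adjusted p = 0.0330). The third, ssc-miR-499-5p, went the other way: it fell from BF-0d to BF-8d (-0.73, adjusted p = 0.0195) and was lower in IMF than in BF on day 0 (-0.59, adjusted p = 0.0426). The part of these markers in the results was not tested. In such cultures fewer cells of a type and less RNA per cell cannot be told apart.

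Other miRNAs known from NF-kB and Toll-like receptor signalling showed whether the pathway's miRNAs moved with these 3. Of 15 entries in this list 13 were tested, and the 3 entries of miR-9, which held the same values, were counted once, leaving 11. Between BF-2d and BF-4d 5 of 11 rose and none fell, where 5.81% of all entries rose and 0.233% fell. The median log2 change was 1.05 against 0.13 over all entries tested. The 5 were ssc-miR-132 and ssc-miR-212, which form a cluster, and ssc-miR-221-3p, ssc-miR-221-5p and ssc-miR-222, which form another. Members of a cluster are not independent, so the 5 do not stand for 5 separate genes. The same 5 also rose over the whole course in BF. Between IMF-4d and IMF-8d 3 of 11 rose and none fell (12.3% and 0.698% of all entries, median 0.49 against 0.18). Over the whole course in BF, 7 rose and 3 fell (27.9% and 14.9% of all entries, median 1.05 against 0.15), and in IMF 3 rose and none fell (19.8% and 10.7%, median 0.29 against 0.07). With TPM computed without ssc-miR-21-5p, which leaves 10 of the list, 4 rose and 3 fell in BF, with 56 and 139 of all entries (median 0.57 against -0.37), and 2 rose and none fell in IMF, with 29 and 97 of all entries (median -0.12 against -0.26). After median-of-ratios scaling 3 rose and 1 fell between IMF-4d and IMF-8d, where 36 and 11 of all 430 entries did. In the other adjacent-day comparisons none of the 11 was called by limma.

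Between the sources 1 of 11 was lower in IMF on day 0 and none higher (15.8% and 13.5% of all entries), and 1 lower and none higher on day 2 (6.51% and 5.81%). The call on day 0 was lost after median-of-ratios scaling and with TPM computed without ssc-miR-21-5p. On day 4, 7 were lower and 1 higher (28.8% and 7.44% of all entries, median -1.51 against -0.34), and on day 8, 5 were lower and 3 higher (25.1% and 12.1%, median -0.54 against -0.28). The listed entries of the miR-132 and miR-212 cluster and of the miR-221 and miR-222 cluster were all among the 7 lower on day 4. After median-of-ratios scaling 7 were lower and 2 higher on day 4, with 69 and 51 of all 430 entries (median -1.09 against 0.00), and 5 were lower and 3 higher on day 8, with 71 and 79 of all entries (median -0.26 against -0.07).

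The most abundant of this list were ssc-miR-21-5p, ssc-miR-221-3p, ssc-miR-222 and ssc-miR-125b. ssc-miR-222, a cell cycle regulator that represses the inhibitor p27, was between 361 and 547 TPM in BF-2d and between 1060 and 2577 TPM in BF-4d (1.95 ± 0.32, adjusted p = 0.00685). Its cluster partner ssc-miR-221-3p rose in the same step by 1.31 ± 0.25 (adjusted p = 0.0137). On day 4 both were lower in IMF, with differences of -2.14 ± 0.30 for ssc-miR-222 (adjusted p = 0.000280) and -1.54 ± 0.25 for ssc-miR-221-3p (adjusted p = 0.000537). ssc-miR-21-5p fell from BF-0d to BF-8d (-0.71 ± 0.22, adjusted p = 0.0143), as did ssc-miR-125b, which targets the tumour necrosis factor transcript (-0.95 ± 0.20, adjusted p = 0.000870). In IMF neither ssc-miR-21-5p nor ssc-miR-125b was called over the same days.

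The known entries with the courses most alike were found by Pearson's correlation of log2(TPM + 1) over the 24 libraries, among 267 tested known entries; it is a description, since the libraries share their groups and their scaling by one total. For ssc-miR-146a-5p they were ssc-miR-181b (r = 0.89), itself in the list above, ssc-miR-218b (r = 0.88) and ssc-miR-218-5p (r = 0.88), the last of which differed from ssc-miR-218b by at most 3 reads in a library. Within the 12 BF and the 12 IMF libraries r was 0.79 and 0.95 for ssc-miR-181b and 0.91 and 0.94 for ssc-miR-218b. For ssc-miR-146b they were ssc-miR-224 (r = 0.92), ssc-miR-452 (r = 0.85) and ssc-miR-133a-3p (r = 0.82), the last of which is one of the skeletal muscle markers. ssc-miR-224 had its lowest means in BF-0d (0.102 TPM) and BF-2d (0.565 TPM), was at 3.39 TPM in IMF-0d and 0.842 TPM in IMF-2d, and had its highest in IMF-8d (15.6 TPM). The BF-0d mean was under the floor of 3 reads, which was worth from 0.178 to 0.271 TPM in the BF-0d libraries. Like ssc-miR-146b, ssc-miR-224 had a lower mean in IMF-2d than in IMF-0d and IMF-4d. For ssc-miR-155-5p they were ssc-miR-16 (r = 0.94), ssc-miR-148b-3p (r = 0.94) and ssc-miR-191 (r = 0.90).

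**Figure D5:**
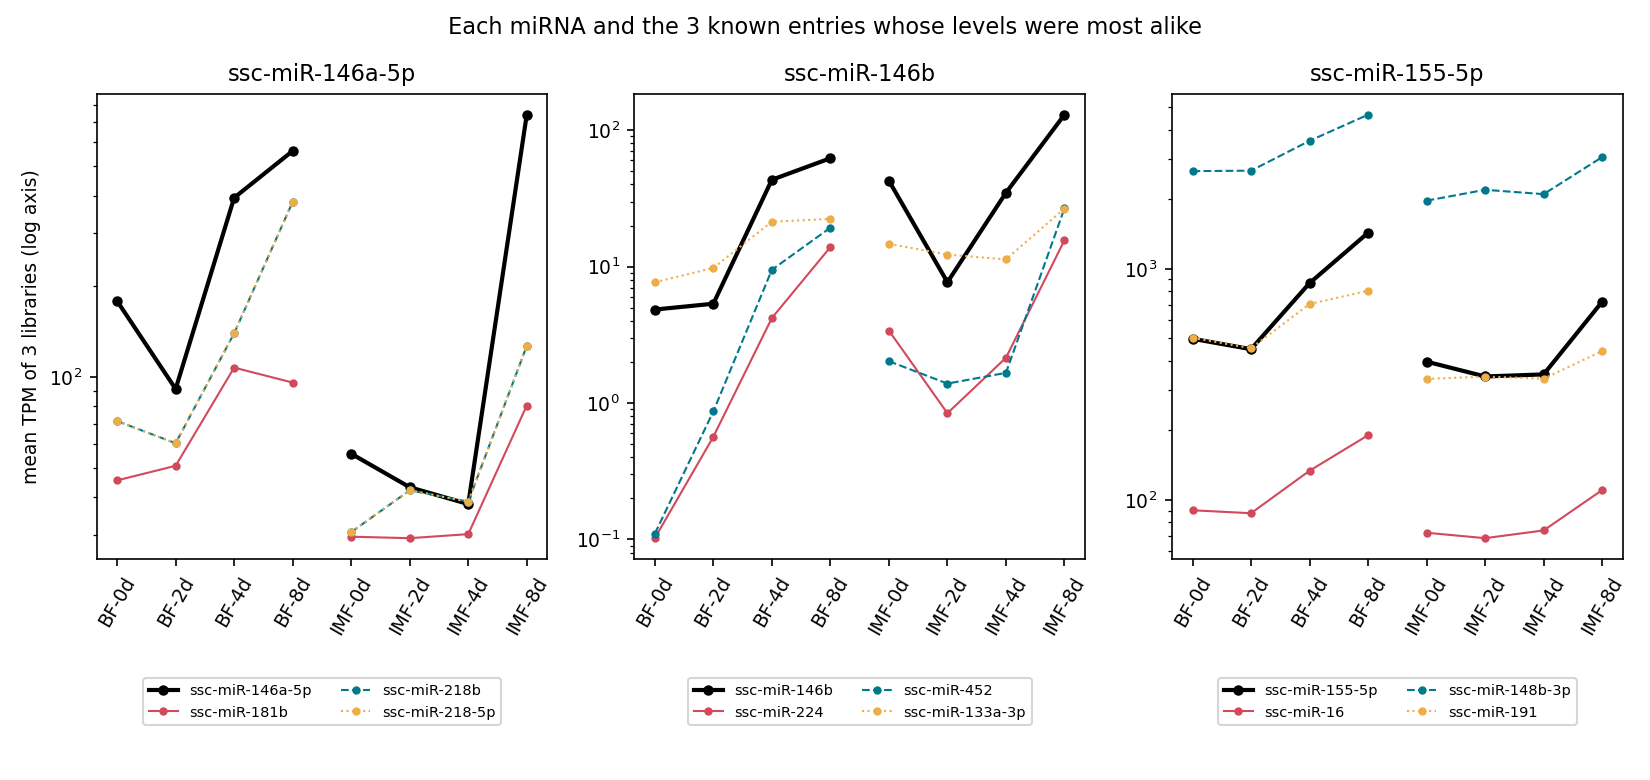
Mean TPM of 3 libraries (log axis) in the 8 groups for each miRNA (black) and the 3 known entries most alike to it in log2(TPM + 1) over 24 libraries. ssc-miR-224 runs from 0.102 TPM in BF-0d, which is under the detection floor, to 15.6 TPM in IMF-8d. Beside it, ssc-miR-146b runs from 4.84 to 129.9 TPM.

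The 3 miRNAs were also compared with each other in the same way. Within the 12 BF libraries r was 0.77 between ssc-miR-146a-5p and ssc-miR-146b, 0.76 between ssc-miR-146a-5p and ssc-miR-155-5p and 0.89 between ssc-miR-146b and ssc-miR-155-5p. Within the 12 IMF libraries these were 0.77, 0.89 and 0.70. Over all 24 libraries they were 0.52, 0.82 and 0.49 in the same order.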

How the data were processed

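Small RNA was sequenced by the authors as single-end reads. Per their methods, they removed adapters and low-quality reads, mapped clean reads to Sscrofa11.1 with Bowtie without mismatches, removed other small RNA classes, took known miRNAs from miRBase and predicted new ones with miRDeep2. The deposited values, named TPM by the authors, are RPM, a miRNA's reads scaled to a total of 1000000 in each library. 100% of them lay within 0.01 of a whole number of reads, so reads were recovered from the deposited values for the count tests. Each entry was counted on its own, and a read may count in more than 1.

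log2(TPM + 1) values were tested with limma 3.58.1 under R 4.3.3, using eBayes with a trend and only the libraries of both groups in question. Entries averaging 1 TPM or more entered, and p-values were adjusted by Benjamini-Hochberg over these 430 in each of 12 comparisons. The scale understates the change of low entries. The interaction was fitted over all libraries. Every p of an exact permutation test is two-sided. Also tried were 0.1 as the pseudocount, no filter or one at 10 TPM, one fit over the 24 libraries, a replicate block, median-of-ratios scaling, TPM without ssc-miR-21-5p, edgeR 4.0.16 and DESeq2 1.42.0 on reads, and leaving out libraries in turn. edgeR called from 1 to 188 entries per comparison and limma from 0 to 184. Ratios, correlations and plots used SciPy 1.17.1, NumPy 2.4.6, pandas 2.3.3 and Matplotlib 3.10.9 under Python 3.11.15.

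Equal replicate numbers were checked for pairing by the correlation of deviations from the group means, which ran from -0.329 to 0.509. Every pair was above 0.1 in 1 of 12 comparisons, BF-0d against IMF-0d (0.188, 0.509 and 0.205); the block changed no call of the 3 miRNAs there. The tests were tried on simulated data first.

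The miRNAs and lists were chosen with earlier results of these data known. Named are all entries matched by name, the 3 known entries most alike to each tested one and cell type markers. Of the signalling list, the 4 most abundant and the 5 called between BF-2d and BF-4d are named. mRNA libraries were not analysed here.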

Additional observations from a re-analysis of the deposited data

Results flagged for a closer look

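In 6 cases the change of a miRNA over time differed between the sources by a test of the difference itself, limma's contrast over all 24 libraries with Benjamini-Hochberg adjustment over 430 entries. Values are the change in IMF minus the change in BF on the log2 scale, ± SE. From day 0 to day 2 it was -2.47 ± 0.32 for ssc-miR-146b (adjusted p = 1.83e-05), where 2.33% of all entries passed: the BF libraries overlapped, and all 3 IMF-2d libraries lay below all 3 IMF-0d libraries. From day 2 to day 4 it was -1.97 ± 0.54 for ssc-miR-146a-5p (adjusted p = 0.0236), where 7.67% of all entries passed. It was no longer called without any one of 5 libraries: replicate 3 of BF-4d (-1.25, adjusted p = 0.0577), replicate 3 of BF-2d (-1.59, adjusted p = 0.0885), replicate 2 of IMF-2d (-1.92, adjusted p = 0.0507), replicate 3 of IMF-2d (-1.95, adjusted p = 0.0536) or replicate 2 of IMF-4d (-1.90, adjusted p = 0.0559). From day 4 to day 8 it was 3.32 ± 0.54 for ssc-miR-146a-5p (adjusted p = 0.000209) and 1.36 ± 0.32 for ssc-miR-146b (adjusted p = 0.00529; with edgeR 1.02, adjusted p = 0.0684), where 12.3% of all entries passed. From day 0 to day 8 it was 2.00 ± 0.54 for ssc-miR-146a-5p (adjusted p = 0.00969) and -1.84 ± 0.32 for ssc-miR-146b (adjusted p = 0.000175), where 20.7% of all entries passed. The signs of the last pair are opposite: although both rose in both sources, ssc-miR-146a-5p rose more in IMF and ssc-miR-146b more in BF.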

How the results depend on the processing

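Between BF-0d and BF-2d the number of the 3 miRNAs called was 0 and became 1 with edgeR and with DESeq2. Between BF-2d and BF-4d it was 1 and became 0 without the filter, 2 with a pseudocount of 0.1, with the filter at 10 TPM and with DESeq2, and 3 with one fit of all libraries and with the replicate block; leaving out 1 library gave from 1 to 3 (3 without replicate 1 of BF-4d). Between BF-4d and BF-8d it was 0 and became 1 with one fit of all libraries, and leaving out 1 library gave from 0 to 1 (1 without replicate 3 of BF-4d). Between IMF-0d and IMF-2d it was 0 and became 1 with a pseudocount of 0.1, the filter at 10 TPM, median-of-ratios scaling, one fit of all libraries, edgeR and DESeq2, and leaving out 1 library gave from 0 to 1 (1 without replicate 2 of IMF-0d). Between IMF-2d and IMF-4d it was 0 and became 1 with the filter at 10 TPM, one fit of all libraries, edgeR and DESeq2. Between BF-2d and IMF-2d it was 0 and became 1 with the filter at 10 TPM, edgeR and DESeq2, and leaving out 1 library gave from 0 to 1 (1 without replicate 3 of BF-2d). Without the filter it was 0 rather than 2 between BF-4d and IMF-4d and 1 rather than 2 between BF-8d and IMF-8d. Between BF-8d and IMF-8d it rose to 3 with median-of-ratios scaling, edgeR and DESeq2. In the other 4 comparisons (IMF-4d and IMF-8d, day 0 and day 8 in each source, and the sources on day 0) it stayed within 1.5 times of its value, falling from 3 to 2 without the filter or without ssc-miR-21-5p between IMF-4d and IMF-8d and between IMF-0d and IMF-8d, where ssc-miR-155-5p was lost.

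ssc-miR-146b between BF-4d and IMF-4d was -0.30 and became 0.12 with median-of-ratios scaling, 0.16 with edgeR and 0.12 with DESeq2. ssc-miR-155-5p between IMF-2d and IMF-4d was 0.05, and leaving out 1 library gave from -0.12 to 0.20. The difference between the sources in its change from day 0 to day 2 was -0.05, and leaving out 1 library gave from -0.25 to 0.15. The adjusted p of the interaction of ssc-miR-155-5p, 0.0701, lay between 0.0266 and 0.161 when 1 library was left out, and past the threshold without replicate 1 of BF-4d (0.0266), replicate 1 of BF-8d (0.0376) or replicate 3 of IMF-0d (0.0378). The interactions of the other two and the ratio of ssc-miR-146a-5p to ssc-miR-146b held under all alternatives run. Of the differences between the sources in single steps, that of ssc-miR-146a-5p from day 2 to day 4 was no longer called without the filter, with median-of-ratios scaling, with TPM without ssc-miR-21-5p and with edgeR (adjusted p up to 0.0786), and that of ssc-miR-146b from day 4 to day 8 with edgeR (1.02, adjusted p = 0.0684). Causes were not tested.

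Libraries of equal replicate number deviated together, with every correlation above 0.1, only between the sources on day 0. The sources used here do not link these numbers to piglets. In that comparison the replicate block left 2 miRNAs called, and outside BF-2d and BF-4d the block changed no count of the 3 by over 1.5 times. Over all 430 entries, calls over the alternatives ran from 0 to 56 between BF-0d and BF-2d (18 as reported), from 0 to 104 between BF-2d and BF-4d (26), from 3 to 81 between BF-4d and BF-8d (13), from 0 to 9 between IMF-0d and IMF-2d (0), from 0 to 2 between IMF-2d and IMF-4d (0), and from 28 to 69 between IMF-4d and IMF-8d (56). For day 0 against day 8 they lay between 105 and 195 in BF (184) and between 70 and 147 in IMF (131). For the sources they lay between 76 and 127 on day 0 (126), 2 and 69 on day 2 (53), 50 and 183 on day 4 (156) and 101 and 163 on day 8 (160). Leaving out 1 library also moved these counts, from 0 to 42 between BF-0d and BF-2d, 2 to 78 between BF-2d and BF-4d and 0 to 30 between BF-4d and BF-8d. Such counts ran from 0 to 12 between IMF-0d and IMF-2d and from 2 to 85 between the sources on day 2. Median-of-ratios scaling moved the share of calls that were higher in the second group from 46.0% to 63.7% for the sources on day 0, 47.2% to 58.3% on day 2, 20.5% to 42.5% on day 4 and 32.5% to 52.7% on day 8, from 96.2% to 72.7% for BF-2d and BF-4d, from 76.9% to 66.7% for BF-4d and BF-8d and from 94.6% to 76.6% for IMF-4d and IMF-8d. Leaving ssc-miR-21-5p out of the total moved it to 9.3% for BF-4d and BF-8d, and over the whole course from 65.2% to 28.7% in BF and from 64.9% to 23.0% in IMF, with the median of all entries at -0.37 in place of 0.15 and at -0.26 in place of 0.07. With 3 libraries in a group and as few as 41 reads behind a value of ssc-miR-146b, small changes may be missed.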

Other observations

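Of the 102 reads of ssc-miR-155-3p, the opposite arm of miR-155, 21 came from replicate 2 of BF-8d (3.39 TPM), while replicates 1 and 3 of BF-8d had 5 and 2 reads. ssc-miR-146a-3p, with 9 reads in all, shares its seed with ssc-miR-9843-3p, which had 10559 reads.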
